A study of Mus musculus with 6 samples.

Results

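The genes described here encode 9 cyclic nucleotide phosphodiesterases, Pde1a, Pde1b, Pde1c, Pde2a, Pde4a, Pde4b, Pde4d, Pde7b and Pde8b. They were taken by symbol from the 32531 gene symbols of the count files, where all 9 were present, and all 9 were among the 16506 genes with enough reads to be tested. They belong to a family of 21 genes for catalytic subunits, and the other 12 are summarised after them.

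The samples were cerebral cortex of adult mice that had no treatment and carried the Htr4-EGFP/Rpl10a transgene (line ES1299), studied by TRAP-seq, in which translating ribosomes are captured and their RNA is sequenced. In such a line Htr4, the gene of a serotonin receptor, drives a ribosomal protein fused to EGFP. Cells with Htr4 promoter activity are thus meant to be tagged, whatever their type. RNA captured on tagged polysomes with antibodies against EGFP (IP, 3 libraries) was compared with the input RNA of the cortex (input, 3 libraries), and both groups carry the tag. The sources used here do not give the strain background, sex, exact age or any pooling of tissue, nor whether replicates came from separate animals, so p-values measure the spread between these libraries, which may be technical.

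Phosphodiesterases cleave the second messengers cAMP and cGMP and so end the signals that adenylyl and guanylyl cyclases start. PDE1 enzymes are switched on by calcium and calmodulin and cleave both messengers, PDE2A cleaves both and is stimulated by cGMP, and the PDE4, PDE7 and PDE8 enzymes prefer cAMP. Htr4 itself encodes a receptor coupled to Gs, the G protein that stimulates adenylyl cyclase, and PDE4 enzymes are the targets of the inhibitor rolipram. In forebrain, PDE1B, PDE7B, PDE10A and PDE2A are known for high expression in striatal projection neurons.

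The members are paralogs, and reads that align to several places are not assigned to a gene by HTSeq, so the stretches that members share bear on their counts. Over all GENCODE M21 transcripts of the 9 genes, the longest run of identical bases was 32 bases, between Pde4b and Pde4d, followed by 29 bases between Pde4a and Pde4b and 23 bases between Pde1a and Pde1c. All of these lie in coding sequence. A read longer than such a run cannot lie wholly inside it, and the sources used here give no read length. The pairs are shown with 10 bases on either side, 5′ to 3′ on the transcript, with the identical run in capitals. They show how short the shared stretches are.
Pde4b: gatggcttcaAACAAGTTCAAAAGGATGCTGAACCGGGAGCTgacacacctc
Pde4d: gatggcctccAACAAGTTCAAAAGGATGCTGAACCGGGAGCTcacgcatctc
Pde4a: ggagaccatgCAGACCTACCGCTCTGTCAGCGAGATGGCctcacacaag
Pde4b: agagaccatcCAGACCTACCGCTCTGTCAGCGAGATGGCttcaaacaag
Pde1a: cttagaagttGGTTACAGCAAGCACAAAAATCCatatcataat
Pde1c: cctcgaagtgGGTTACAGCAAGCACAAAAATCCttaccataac
In GRCm38 the Pde4a window is chr9:21194810-21194858 and its Pde4b counterpart chr4:102570830-102570878, both on the plus strand. The Pde1a window is chr2:79897128-79897170 and the Pde1c window chr6:56173666-56173708, both on the minus strand. The window shared by Pde4b and Pde4d crosses an exon junction in both genes.

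The genes lie on different chromosomes except Pde4d and Pde8b, which are both on chromosome 13 (GRCm38, GENCODE M21). Pde1a spans chr2:79834453-80129458 (minus), Pde1b chr15:103503034-103530052 (plus), Pde1c chr6:56069804-56569103 (minus) and Pde2a chr7:101421691-101512827 (plus). Pde4a spans chr9:21165714-21213248 (plus), Pde4b chr4:102087543-102607259 (plus) and Pde4d chr13:108449948-109953461 (plus). Pde7b spans chr10:20398004-20725078 (minus) and Pde8b chr13:95024454-95250336 (minus). Pde2a shares 3955 exonic bases with Gm45837, a gene model on the same strand, and Pde8b shares 447 with Gm48420 on the opposite strand. Neither symbol is in the count files and the strand setting is not given, so reads of these partners could be counted to Pde2a and Pde8b.

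Most members have several annotated starts, and the counts sum over them. RefSeq (GRCm38.p6) lists 29 promoter windows for the 9 members, from 250 bases before to 50 bases after a start, with 5 each for Pde2a and Pde8b and 1 each for Pde4d and Pde7b. The cAMP response element TGACGTCA, searched on both strands, was in 0 of the 29 windows and in 1.79% of all 32851 windows. Its shorter form TGACGT, which the full element contains, was in 2 of the 29 windows and in 7.51% of all. These 2 windows belong to PDE4 genes, Pde4a and Pde4b, of which the first was called higher in IP and the second was not. In both the motif is read on the opposite strand, shown in capitals.
Pde4a, chr9:21184010-21184095, plus strand: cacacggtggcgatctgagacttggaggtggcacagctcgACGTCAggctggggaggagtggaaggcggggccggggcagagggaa
Pde4b, chr4:102421480-102421554, plus strand: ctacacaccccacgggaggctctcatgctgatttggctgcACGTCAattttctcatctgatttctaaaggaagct
The motif begins 51 bases before the start in Pde4a and 35 bases before it in Pde4b. These matches describe the sequence only.

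Reads on genes numbered 53147173 to 67559533 in IP libraries and 37696125 to 52360452 in input libraries. Levels are given as CPM, the reads of a gene scaled to a common total of gene reads per library, with library sizes adjusted by TMM. Differences were tested with edgeR's quasi-likelihood test, with Benjamini-Hochberg adjustment over all 16506 genes and a threshold of 0.05, and fold changes are IP over input. The 2 groups differed broadly, with 44.8% of tested genes passing, 21.3% higher and 23.4% lower in IP. Markers of glia were low in IP: all 7 astrocyte, 7 oligodendrocyte and 7 microglia markers tested were lower, with median log2 fold changes of -3.84, -3.61 and -3.93. Of 7 pyramidal neuron markers 2 were higher and 0 lower (median 0.23), and of 8 GABAergic neuron markers 3 were higher and 0 lower (median 0.16). For IP, fewer tagged cells of a type and less captured RNA per cell cannot be told apart in such bulk samples.

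Of the 9 phosphodiesterase genes, 4 rose in IP and 0 fell, and 5 did not pass. The genes that rose were Pde1b, Pde2a, Pde4a and Pde8b, by 1.20- to 1.58-fold. The median log2 fold change of the 9 was 0.27, against -0.015 over all genes tested. The values of the IP and input libraries did not overlap for 5 of the 9 (56.1% of all tested genes), namely the 4 that rose, with IP higher (26.5% of all tested genes), and Pde4d, with IP lower. A share of 4 in 9 higher in IP stands beside 21.3% of all genes. The size of the changes was modest, since no member changed as much as 2-fold.

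**Figure D1:**
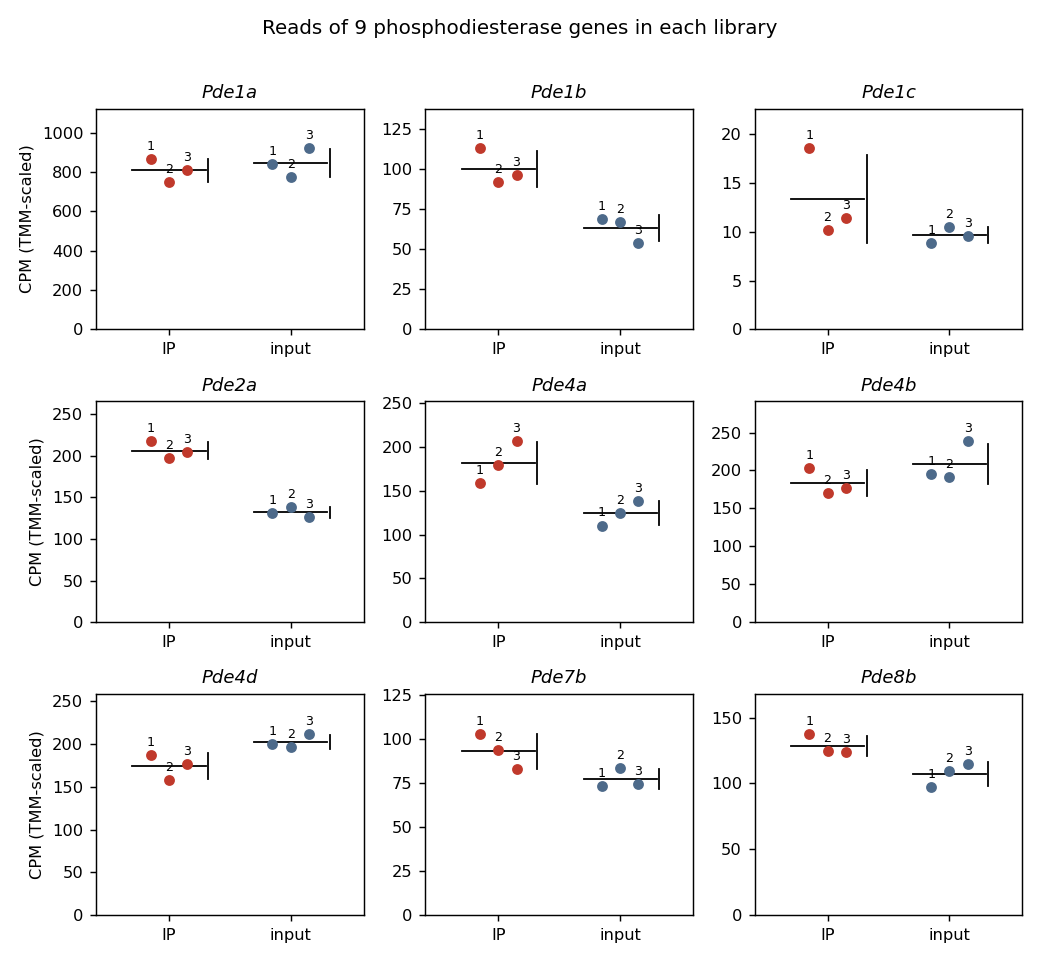
CPM (TMM-scaled, vertical axes starting at 0) of each of the 9 genes in 3 IP libraries (red, left) and 3 input libraries (blue, right), numbered by replicate. Horizontal lines are means and vertical bars 1 SD. Pde1b, Pde2a, Pde4a and Pde8b lie higher in every IP library than in any input library, while Pde4d lies lower.

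The PDE1 genes encode the calcium- and calmodulin-dependent enzymes, and of the 3 only Pde1b passed the test. Pde1a, whose enzyme prefers cGMP, had 865, 749 and 812 CPM in IP replicates 1 to 3, against 842, 775 and 920.2 CPM in input replicates 1 to 3. The groups overlapped, and Pde1a did not pass (log2 fold change -0.065, SE 0.09, adjusted p = 0.59). Pde1a was covered by 30916 to 55434 reads per library, the most of any member.

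Pde1b, known for its high level in striatal neurons, had 113, 91.6 and 96.1 CPM in IP against 69.0, 67.0 and 53.8 CPM in input. Every IP library was higher than every input library. The means were 100.2 ± 11.2 CPM in IP and 63.3 ± 8.26 CPM in input (SD, n = 3 each), a 1.58-fold rise (log2 fold change 0.66, SE 0.12, adjusted p = 0.0010). Within lanes 1, 2 and 3, each of which held an IP and an input library, its log2 difference was 0.71, 0.45 and 0.83.

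Pde1c, whose enzyme cleaves cAMP and cGMP about equally, was the least abundant member. It had 18.6, 10.2 and 11.4 CPM in IP against 8.88, 10.5 and 9.60 CPM in input. Only IP replicate 1 stood above the input range by much, and IP replicate 2 lay within it. The gene did not pass (log2 fold change 0.47, SE 0.23, adjusted p = 0.11). Without IP replicate 1 the log2 fold change was 0.17 (adjusted p = 0.52), and without IP replicate 2 it was 0.64 and passed (adjusted p = 0.038). It also passed with a length and GC offset centred on the median gene (log2 fold change 0.82, adjusted p = 0.012).

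Pde2a, the cGMP-stimulated enzyme, had 218, 197 and 205 CPM in IP against 131, 138 and 126 CPM in input. The IP libraries lay well above the input libraries, and the spread within each group was small. The means were 206 ± 10.4 CPM in IP and 132 ± 6.27 CPM in input (SD, n = 3 each), a 1.57-fold rise with the lowest adjusted p of the 9 (log2 fold change 0.65, SE 0.09, adjusted p = 0.00011). Within lanes 1 to 3 the log2 difference was 0.73, 0.51 and 0.70.

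The PDE4 genes encode the rolipram-sensitive cAMP-specific enzymes, and of the 3 members only Pde4a passed the test. Pde4a had 159, 179.5 and 207 CPM in IP against 110.3, 125 and 138 CPM in input, without overlap. It rose 1.46-fold, with means of 182 ± 24.0 CPM in IP and 124 ± 14.0 CPM in input (SD, n = 3 each; log2 fold change 0.54, SE 0.12, adjusted p = 0.0027). The log2 difference was 0.52, 0.52 and 0.58 within lanes 1 to 3, the most even of the genes that rose.

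Pde4b, a gene whose enzyme binds the scaffold protein DISC1, had 203, 169.8 and 177 CPM in IP against 196, 191 and 239 CPM in input. The groups overlapped, because IP replicate 1 exceeded input replicates 1 and 2, and the gene did not pass (log2 fold change -0.19, SE 0.11, adjusted p = 0.19). Pde4d, whose enzyme can be recruited to receptors by beta-arrestins, had 187, 158 and 177 CPM in IP against 199.8, 196 and 212 CPM in input. Its groups did not overlap, and all IP libraries lay lower. It missed the threshold (log2 fold change -0.22, SE 0.09, adjusted p = 0.069). With the replicate block, which compares libraries within a lane, Pde4d passed as lower (log2 fold change -0.22, adjusted p = 0.045). Pde4d passed as lower under 5 of 17 alternative settings, this block among them, and turned positive under 2. With a length and GC offset centred on the median gene it was -0.073 (adjusted p = 0.56).

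Reads of the 3 PDE4 genes together were level, at 539 ± 28.1 CPM in IP and 535.5 ± 46.1 CPM in input (SD, n = 3 each). Within them, Pde4a made up 28.9%, 35.4% and 36.8% of the reads in IP replicates 1 to 3 and 21.8%, 24.4% and 23.5% in input replicates 1 to 3. Pde4b made up 34.0% ± 2.74 in IP and 38.8% ± 1.65 in input, and Pde4d 32.3% ± 1.62 in IP and 37.9% ± 1.80 in input. The share of Pde4a was thus higher in every IP library than in any input library, which leaves less for the shares of Pde4b and Pde4d.

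Pde7b and Pde8b encode cAMP-specific enzymes that are insensitive to rolipram, and of the pair only Pde8b passed the test. Pde7b had 103, 93.5 and 83.0 CPM in IP against 73.0, 83.7 and 74.7 CPM in input. IP replicate 3 fell below input replicate 2, and the gene missed the threshold (log2 fold change 0.27, SE 0.11, adjusted p = 0.058). It passed with the replicate block (log2 fold change 0.27, adjusted p = 0.047) and with the centred length and GC offset (0.45, adjusted p = 0.0042). It also passed when IP replicate 3 was left out (0.35, adjusted p = 0.022), when libraries were scaled by total gene counts (0.36, adjusted p = 0.022) and when low counts were not filtered (0.29, adjusted p = 0.045).

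Pde8b, a high-affinity cAMP enzyme that the general inhibitor IBMX does not block, had 137, 124 and 124 CPM in IP against 97.2, 109.7 and 115 CPM in input. The groups did not overlap, and the gap between the lowest IP and the highest input library was small. The rise was 1.20-fold, with means of 129 ± 7.66 CPM in IP and 107 ± 8.94 CPM in input (SD, n = 3 each; log2 fold change 0.26, SE 0.10, adjusted p = 0.044). Within lanes 1 to 3 the log2 difference was 0.50, 0.18 and 0.12. The call ended without IP replicate 1 (adjusted p = 0.12), without input replicate 1 (adjusted p = 0.12) and without input replicate 2 (adjusted p = 0.10), as it did with RLE size factors (adjusted p = 0.063) and when only genes reaching 1 CPM in 3 libraries were tested (adjusted p = 0.087).

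**Figure D2:**
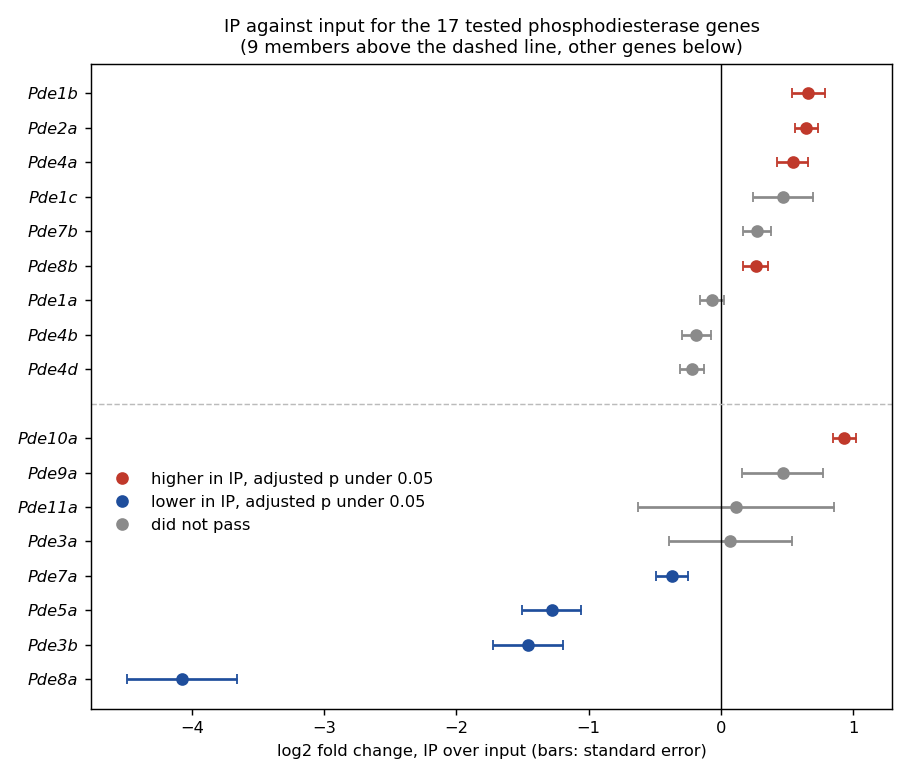
Log2 fold change of IP over input for the 17 catalytic phosphodiesterase genes that could be tested, with bars of 1 standard error. Red points are higher and blue points lower in IP at an adjusted p under 0.05, and grey points did not pass. The 9 members above the dashed line lie between -0.22 and 0.66, and the other genes below it reach from -4.07 for Pde8a to 0.94 for Pde10a.

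The makeup of the family within a library does not depend on library scaling, but no offset for length or GC content was applied to it. GC content of the longest transcript was 51.2% to 57.2% for the 4 genes that rose and 41.2% to 49.8% for the 5 that did not pass. The part of GC content in the shares was not tested. Pde1a took 42.8% ± 0.49 of the reads of the 9 genes in IP and 47.7% ± 1.78 in input (SD, n = 3 each). Pde2a took 10.9% ± 0.16 in IP and 7.47% ± 0.75 in input, Pde4a 9.65% ± 1.55 in IP and 7.03% ± 0.55 in input, and Pde1b 5.29% ± 0.30 in IP and 3.60% ± 0.65 in input. Pde4b took 9.68% ± 0.40 in IP and 11.7% ± 0.78 in input, and Pde4d 9.21% ± 0.26 in IP and 11.5% ± 0.21 in input. The IP and input shares did not overlap for any of these 6 genes, nor for Pde8b, and they overlapped for Pde1c and Pde7b. Shares within a library depend on each other, since a higher share of a gene leaves less for the rest. In CPM, Pde1a and Pde4b overlapped between IP and input and did not pass the edgeR test (adjusted p = 0.59 and 0.19). The summed level of the 9 was 1889 ± 115 CPM in IP and 1770.3 ± 103 CPM in input.

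**Figure D3:**
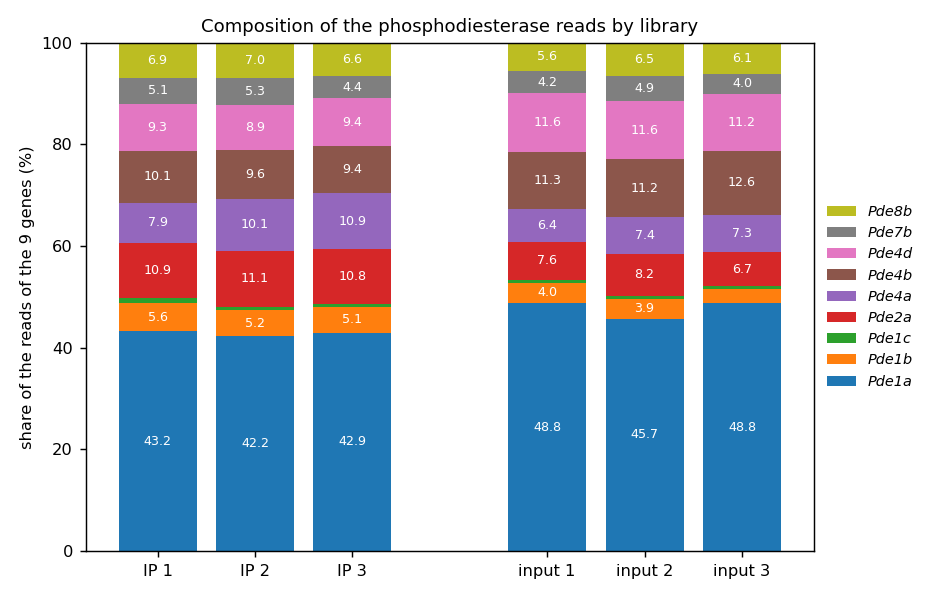
Share of each of the 9 genes in their summed reads (%, stacked to 100) in each IP library (left) and each input library (right). The Pde1a segment is 42.2% to 43.2% in IP and 45.7% to 48.8% in input, and the Pde2a segment is wider in IP.

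Between genes, levels were compared per kilobase of merged GENCODE exons. Pde1a was highest in both groups, at 135 ± 9.69 CPM per kilobase in IP and 141 ± 12.1 CPM per kilobase in input. Pde2a came next, at 33.6 ± 1.69 CPM per kilobase in IP and 21.4 ± 1.02 CPM per kilobase in input. In IP the order of levels went on with Pde4a (23.7), Pde8b (21.9), Pde1b (18.6), Pde4b (17.3), Pde4d (14.5), Pde7b (7.48) and Pde1c (0.668 CPM per kilobase). The libraries of Pde4a and Pde8b overlapped, as did those of Pde1b and Pde4b, while the other neighbours in IP did not. In input the order after Pde1a was Pde2a, Pde4b (19.7), Pde8b (18.2), Pde4d (16.9) and Pde4a (16.3 CPM per kilobase), and neighbours among these 5 genes overlapped. Pde1b followed in input at 11.7, Pde7b at 6.20 and Pde1c at 0.481 CPM per kilobase. With the longest transcript as length, Pde1a stayed first and Pde7b and Pde1c last in both groups, but Pde4b (48.4) and Pde4d (48.2) came before Pde2a (31.3 CPM per kilobase) in input. In IP that length put Pde4b (42.6) and Pde4d (41.4) after Pde2a (48.9), ahead of Pde4a (39.0), Pde8b (30.4) and Pde1b (23.8 CPM per kilobase). Pde2a, Pde4b, Pde4d and Pde4a then each overlapped with their neighbours among these 4 genes, so the order in the middle of the list depends on the length used.

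Of the 12 other catalytic genes, 8 could be tested, of which 1 rose (against 21.3% of all tested genes) and 4 fell (against 23.4%). Pde10a, the dual-specificity enzyme of striatal projection neurons, rose 1.91-fold, with 389, 368 and 343 CPM in IP against 189.8, 203 and 182 CPM in input (log2 fold change 0.94, SE 0.087, adjusted p = 8.7e-06). Per kilobase it stood at 28.5 ± 1.81 CPM in IP and 14.9 ± 0.86 CPM in input (SD, n = 3 each). The largest fall was that of Pde8a, the paralog of Pde8b, with 11, 55 and 49 reads in IP against 340, 510 and 476 reads in input. Its means were 0.568 ± 0.32 CPM in IP and 9.71 ± 0.44 CPM in input (log2 fold change -4.07, SE 0.42, adjusted p = 1.7e-05). Pde8b and Pde8a therefore had calls in opposite directions in the same libraries.

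Pde3b, a cGMP-inhibited enzyme, fell to 4.49 ± 1.78 CPM in IP, against 12.4 ± 1.15 CPM in input (log2 fold change -1.46, adjusted p = 0.00090). The cGMP-specific Pde5a fell to 7.17 ± 2.19 CPM in IP, against 17.4 ± 2.07 CPM in input (log2 fold change -1.28, adjusted p = 0.00067). Pde7a fell to 26.0 ± 0.48 CPM in IP, against 33.6 ± 2.62 CPM in input (log2 fold change -0.37, adjusted p = 0.026). The call of Pde7a ended without IP replicate 1 (adjusted p = 0.051), IP replicate 3 (0.059), input replicate 2 (0.074) or input replicate 3 (0.11), with total gene counts (0.086) and with the centred length and GC offset (0.078).

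The glial marker lists fell in the same IP libraries as Pde8a, Pde3b, Pde5a and Pde7a. Summed astrocyte markers were 97.5 to 127 CPM in IP and 503 to 539 CPM in input, and summed oligodendrocyte markers 159 to 182 CPM in IP and 1342 to 1488 CPM in input. Summed microglia markers were 3.73 to 6.46 CPM in IP and 46.3 to 52.6 CPM in input, with C1qa, a microglia marker, at 2, 0 and 0 reads in IP replicates 1 to 3. All 5 oligodendrocyte precursor markers fell (4.97 to 7.63 CPM summed in IP, 80.8 to 84.2 CPM in input), as did 4 of 5 tested endothelial markers. Endothelial markers were low in both groups, at 0.0586 to 0.915 CPM summed in IP and 4.44 to 9.50 CPM in input. Tek had 0 reads in all IP libraries and 41, 88 and 36 reads in input. Among all tested genes 23.4% were lower. The part of these cell types in the falls of Pde8a, Pde3b, Pde5a and Pde7a was not tested.

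Pde9a, a high-affinity cGMP enzyme, had 16.1, 6.45 and 7.78 CPM in IP against 8.09, 6.46 and 7.39 CPM in input. As for Pde1c, IP replicate 1 alone was high. Pde9a did not pass (log2 fold change 0.47, adjusted p = 0.24), and was -0.031 without that library. Pde3a and Pde11a lay near or under 1.5 CPM and did not pass (adjusted p = 0.92 for both). Pde4c and the photoreceptor genes Pde6a, Pde6b and Pde6c had too few reads for the test, at most 33 in a library.

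Genes of the same pathways were taken from lists. Calm2, a gene for calmodulin, which activates PDE1 enzymes, rose to 6187 ± 687 CPM in IP, against 2164 ± 179 CPM in input (SD, n = 3 each; log2 fold change 1.52, adjusted p = 5.9e-07). Of 14 cAMP and cGMP effector genes, 6 rose (against 21.3% of all tested genes) and 2 fell (against 23.4%), with a median of 0.38. Prkaca, a catalytic subunit of protein kinase A, rose with a log2 fold change of 0.98 (adjusted p = 9.1e-06), and the most abundant, its regulatory subunit gene Prkar1a, rose with 0.76 (adjusted p = 3.2e-05). Rapgef4, the cAMP-activated exchange factor EPAC2, fell (log2 fold change -1.06, adjusted p = 3.0e-06).

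The counts for the cyclases that make the messengers stand beside 21.3% of all tested genes higher and 23.4% lower. Of 9 adenylyl cyclase genes tested, 3 rose and 3 fell (median log2 fold change -0.087). The most abundant, Adcy1, a calmodulin-stimulated cyclase, fell to 489.6 ± 85.9 CPM in IP, against 734 ± 90.7 CPM in input (log2 fold change -0.58, adjusted p = 0.0030). Adcy5, the main cyclase of striatum, rose (log2 fold change 0.61, adjusted p = 0.0016), and Adcy7 fell most (-1.31, adjusted p = 0.027) with 54 to 120 reads per library. Of 9 tested genes for guanylyl cyclases and the neuronal nitric oxide synthase, 2 rose and 2 fell (median -0.24). Among them Gucy1a3, a subunit of the nitric oxide receptor, rose (log2 fold change 0.72, adjusted p = 0.0022), the related subunit Gucy1a2 fell (-0.78, adjusted p = 3.4e-05) and the receptor cyclase Gucy2e fell most (-1.44, adjusted p = 0.011).

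Of 5 tested genes for partners of PDE4 enzymes, 1 rose (against 21.3% of all tested genes) and 2 fell (against 23.4%). Their median log2 fold change was -0.23. The beta-arrestin gene Arrb2 rose (log2 fold change 0.78, adjusted p = 0.0011). Arrb1, also a beta-arrestin gene, did not pass (-0.23, adjusted p = 0.064), though every IP library lay lower than any input library. Arrb1 had more reads, at 222 CPM in IP and 260 CPM in input, against 30.9 and 18.0 CPM for Arrb2. The anchor gene Akap9 fell (-0.57, adjusted p = 0.0031), as did the most abundant, Akap6 (-0.39, adjusted p = 0.0016). Neither anchor passed with the centred length and GC offset (-0.19, adjusted p = 0.21 for Akap9, and -0.15, adjusted p = 0.098 for Akap6), and with the uncentred offset both turned positive without passing (0.11 for Akap9 and 0.15 for Akap6).

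Markers of striatal projection neurons, hippocampal neurons and cortical layers differed between IP and input. Their counts stand beside 21.3% of all tested genes higher and 23.4% lower in IP. Of 10 striatal markers, which include Adcy5, 9 rose (median log2 fold change 1.54) and Rgs9 fell, to 26.1 CPM in IP, against 70.2 CPM in input. None of the 10 was at 0 reads in IP, and their summed level was 1405, 959 and 1105 CPM in IP replicates 1 to 3, against 381, 417 and 340.1 CPM in input replicates 1 to 3. IP replicate 1, where the striatal sum was highest, was also the highest IP library for Pde10a and Pde9a. The same held for every one of the 9 members except Pde4a, whether or not they rose. IP replicate 1 was also highest for the summed GABAergic (1734 CPM), layer 5 (815 CPM) and layer 6 markers (423 CPM). The pyramidal neuron sum was highest in IP replicate 2 and the sum for layers 2 to 4 in IP replicate 3. Hippocampal markers had 4 of 7 higher and 0 lower, with summed levels of 532, 905.2 and 390.5 CPM in IP against 339, 373 and 323 CPM in input, highest in IP replicate 2. All 6 layer 5 pyramidal tract markers rose (median 1.10), all 5 layer 6 corticothalamic markers rose (median 0.84), and 5 of 7 markers of layers 2 to 4 fell (median -0.47). The part of these cell types in the phosphodiesterase values was not tested.

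The genes with the pattern most like that of Pde1b, the member with the largest positive change, over the 6 libraries were Cys1, Mtfr1l and Lamtor5, with root mean square differences of 0.047 to 0.049 in centred log2 CPM. For Pde4d, the member with the largest negative value, they were Asb1, Prpf38b and Fam169a (0.0095 to 0.031). The search covered 8076 genes with a mean of at least 10 CPM.

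**Figure D4:**
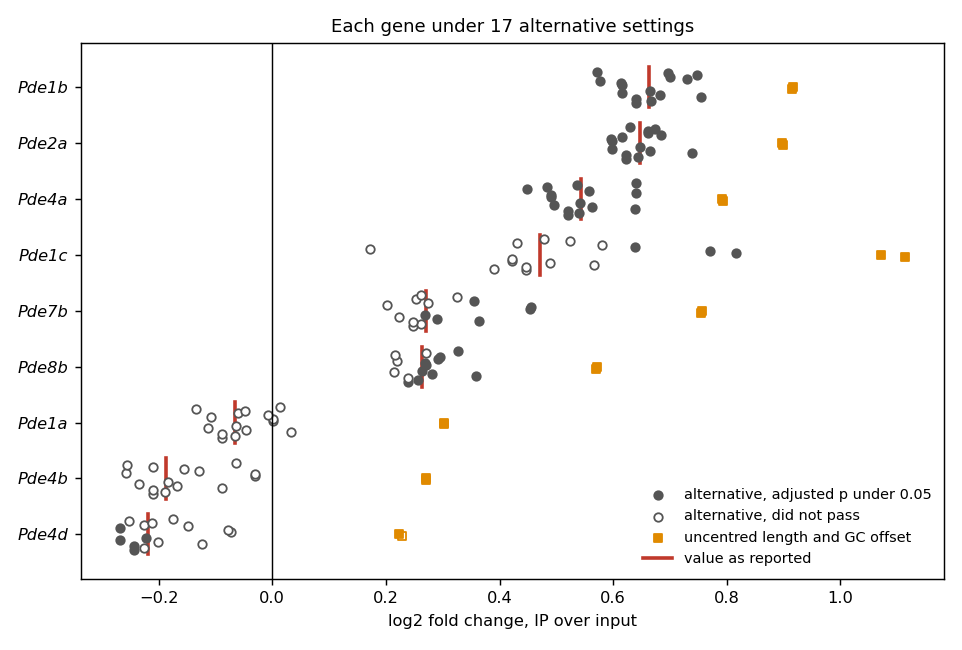
Log2 fold change of IP over input of each of the 9 genes under 17 alternative settings. Filled points had an adjusted p under 0.05, open points did not, orange squares are the uncentred length and GC offset, and red lines are the values as reported. Pde1b, Pde2a and Pde4a stayed positive and passed under all 17, while the points of Pde1a and Pde4b lie on both sides of 0.

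Pde1b, Pde2a and Pde4a passed as higher under all 17 alternatives, with log2 fold changes of 0.57 to 0.92, 0.60 to 0.90 and 0.45 to 0.79. Pde8b kept its call under 12 of the 17. The uncentred length and GC offset shifted log2 fold changes upward, with a median shift over genes of 0.26. With it 5904 genes were higher and 2087 lower in IP, against 3523 and 3864 as reported, and 8 of the 9 members were called higher. The centred version, added after seeing the data, called 6 of the 9 members higher and 0 lower. It called 3256 higher and 3077 lower among all 14955 genes tested with it. The reported count of 4 members higher comes from the test without an offset.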

How the data were processed

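Whole reads per gene symbol were measured in 6 libraries. The deposited files hold raw counts with no normalization. Per the submitters' processing notes, STAR 2.0.0e and HTSeq were used with build mm10. For HTSeq, no version, strand setting or annotation is given in those sources.

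Library sizes and tests used gene rows alone. Left out were reads outside genes (8.60% to 8.92% of listed reads in IP, 16.7% to 18.1% in input), reads matching several genes (1.77% to 1.91% in IP, 8.12% to 9.83% in input), reads aligned to several places (32.9% to 35.7% in IP, 21.1% to 23.3% in input) and a row named unknown (at most 2 reads). A floor of 3 reads is 0.0444 to 0.0564 CPM in IP and 0.0573 to 0.0796 CPM in input, which covers counting error only. No 2 libraries of a group were copies (chi-square per degree of freedom 23.2 to 68.8).

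The main test was edgeR 4.0.16 (R 4.3.3) with TMM, filterByExpr, a group term alone and a two-sided adjusted p under 0.05. Standard errors come from the test statistic. Within-lane log2 differences use a pseudocount of 0.5 CPM. Alternatives were DESeq2 1.42.0, limma-voom 3.58.1, RLE size factors, total gene counts, other filters, a replicate block, leaving out each library, and an offset for exon length and GC content (mgcv 1.9.3), which 90.6% of tested genes had. The offset centred on the median gene was added after seeing the data. The edgeR test with and without the replicate block, limma-voom and DESeq2 were tried on simulated counts. The annotation matching and the sequence searches were not.

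In both groups the replicate number is also the number of the lane in the labels, so it marks a shared sequencing lane and pairs the libraries. Over genes, the correlation of deviations between an IP and an input library was 0.13, 0.086 and 0.047 where the number was shared, against -0.083 to 0.0066 otherwise. IP and input carried different library indexes, so index and group cannot be told apart.

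Symbols were matched to GENCODE M21 (GRCm38) for 23879 of 32531 rows. All members and other catalytic genes may be named. In pathway lists the called gene that rose most, the one that fell most and the most abundant are named, and marker lists are given as counts, medians and sums. Arrb1 is named in addition, beside Arrb2. A result under this rule is not reported here. Members and lists were chosen with earlier results of these data known.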

Additional observations from a re-analysis of the deposited data

How the results depend on the processing

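With the uncentred length and GC offset, and with that offset and the replicate block, 5904 and 5960 genes were higher and 2087 and 2152 lower in IP, 8 and 9 phosphodiesterase members were higher, 0 and 0 adenylyl cyclase genes were lower, 2 and 2 partner genes of PDE4 were higher and 0 and 0 lower, and 1 and 1 effector gene was lower. Under these 2 offsets values turned positive for Pde1a (0.30 and 0.30), Pde4b (0.27 and 0.27), Pde4d (0.23 and 0.22), Pde7a (0.037 and 0.039), Akap9 (0.11 and 0.099) and Akap6 (0.15 and 0.15). With the centred offset, alone and with the block, 2 and 2 partner genes were higher and 0 and 0 lower, and alone 1 effector gene was lower. Pde1a was 0.00055 and 0.00078 with it and 0.032 with total gene counts. Counts of members lower in IP were 1 with DESeq2, 1 with RLE size factors, 1 when genes had to reach 1 CPM in 3 libraries and 1 with the replicate block, in each case Pde4d. Among all genes, these settings gave 4203, 3985, 3404 and 3966 lower, in that order. With total gene counts 1 effector gene was lower. With the replicate block the members were 5 higher and 1 lower, beside 3607 and 3966 of all genes. Pde4d and Pde7b were the members whose calls the block changed.

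Leaving out 1 library gave 3 to 5 members higher and 0 to 1 lower, 1 to 2 other catalytic genes higher, 1 to 3 adenylyl cyclase genes higher and 1 to 3 effector genes lower. Among all genes, the same fits gave 2673 to 3418 higher and 3109 to 4095 lower. Without IP replicate 1, Pde4d was the member called lower (adjusted p = 0.048) and Pde9a had its lowest log2 fold change. Over the 6 such fits, log2 fold changes ran from -0.13 (without input replicate 2) to 0.014 (without input replicate 3) for Pde1a, -0.047 (without input replicate 3) to 0.34 (without input replicate 1) for Pde3a, -0.031 to 0.71 (without IP replicate 2) for Pde9a and -0.49 (without IP replicate 1) to 0.57 (without IP replicate 3) for Pde11a. Pde11a was -0.28 with limma-voom, -0.19 with the replicate block and -0.18 with the centred offset and block. None of these values of Pde3a, Pde9a and Pde11a passed, nor did Pde1a with total gene counts or without any 1 library. Within members' shares, the denominator of all 21 genes gave Pde1a 35.0% in IP and 41.3% in input. The cause of these shifts was not tested. The 3 libraries a group and counts under about 100 reads limit Pde3a and Pde11a, whose standard errors were 0.47 and 0.74.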
